A study of Mus musculus with 12 samples.

Results

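The Ly6 genes described here are 8 neighbours on mouse chromosome 15, namely Ly6a, Ly6c1, Ly6c2, Ly6d, Ly6e, Ly6f, Ly6i and Ly6k, out of 51826 genes counted in 12 pre-B cell lines. They were taken as the listed Ly6 symbols of this cluster. The set was chosen by measured levels among other things, namely the read counts of Ly6f, which were high in BCR-ABL1 lines alone, and those of Ly6d, a B lineage marker. The comparison of BCR-ABL1 with control lines is therefore a description of these genes without a test, whereas the comparison of the mice, which the choice did not use, was tested.

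Ly6 proteins are small, cysteine-rich proteins that fold into a three-fingered domain and are mostly held on the outer face of the plasma membrane by a glycosylphosphatidylinositol (GPI) anchor. Several of them serve as antigens by which blood cell types and stages are recognised in mice. Ly6a is Sca-1, a marker of haematopoietic stem cells and activated lymphocytes that interferons induce, Ly6d marks lymphoid progenitors that are set on the B lineage, Ly6c is carried by monocytes and some T cells, and Ly6e is found on many cell types.

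The lines came from bone marrow of 2 C57BL/6 mice that was cultured for 7 days with interleukin 7 (IL7), the growth factor on which mouse pre-B cells depend. Cells of each mouse were transduced with a pMIG retroviral vector that was either empty (EV) or carried BCR-ABL1, a constitutively active tyrosine kinase made by a leukaemic translocation, which gave 3 EV and 3 BCR-ABL1 lines per mouse. The treatment of the conditions diverged 48 h later. Lines with BCR-ABL1 grew without IL7 for 1 week, and lines with EV were given IL7 throughout and selected by cell sorting on GFP, which the vector encodes. BCR-ABL1, IL7 withdrawal and the sort thus cannot be told apart, and lines are named by mouse and letter, so that EV line 2A is an EV line of mouse 2.

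The depth was 34791011 to 66011225 counted reads per line. EV lines 2A and 2B stood apart in the number of genes with at least 1 read, which was 36123 and 28517 against 20235 to 25143 in the 10 other lines. The cells carried B lineage markers, since all 12 markers passed the filter on low counts and their summed level was 3183 to 5879 CPM (read counts scaled to library depth) across EV lines and 3381 to 4283 CPM across BCR-ABL1 lines. Myeloid markers, 10 genes, summed to at most 2.36 CPM in any line. T and NK cell markers, 10 genes, summed to 11.2 to 42.0 CPM across EV lines but 0.664 to 4.76 CPM across BCR-ABL1 lines, nearly all of it Trac, the T cell receptor alpha constant region. Stem and progenitor markers, 8 genes, summed to 0.901 to 2.94 CPM across EV lines but 4.91 to 7.30 CPM across BCR-ABL1 lines, mostly from the receptor kinase gene Flt3. In such bulk RNA, fewer cells of a type and less RNA per cell cannot be told apart.

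The cluster spans 510.2 kb of chromosome 15 in the GRCm38 build, and all 8 genes are annotated as protein coding. Ly6d lies first, at chr15:74762056-74763620 on the minus strand, followed by Ly6k at chr15:74796874-74799986 on the minus strand and Ly6e at chr15:74955051-74959905 on the plus strand. Ly6i at chr15:74979534-74983430, Ly6a at chr15:74994877-74998031, Ly6c1 at chr15:75044018-75048830 and Ly6c2 at chr15:75108158-75111970 follow on the minus strand. Ly6f closes the row at chr15:75268421-75272235 on the plus strand.

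By coding sequence the cluster falls into close relatives and distant ones. Ly6a, Ly6c1, Ly6c2, Ly6f and Ly6i were between 76.6% and 97.7% identical to each other over the columns of pairwise alignments, with Ly6c1 and Ly6c2 the closest pair at 97.7%. Ly6f was most like Ly6a, at 84.6%. Ly6d, Ly6e and Ly6k were 46.5% to 53.5% identical to each other and to the rest. Closeness matters for counting. Of all windows of 150 bases, the read length, 33.5% of Ly6c1 and 20.1% of Ly6c2 transcript windows lay within 2 mismatches of another Ly6 transcript, so the reads of this pair are uncertain. The share was 1.6% for Ly6a and 0% for Ly6d, Ly6e, Ly6f, Ly6i and Ly6k. Ly6k shared 10.1% of its windows exactly with the transcript of Gm17189, which lies antisense to it.

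**Figure D1:**
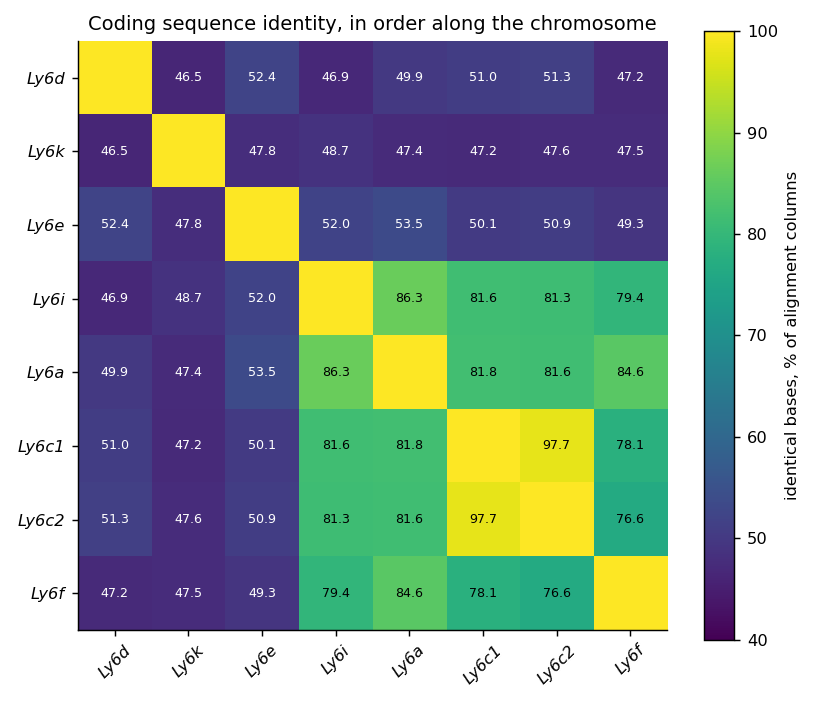
Identity between the coding sequences of the 8 Ly6 genes, in percent of alignment columns, with genes in their order along the chromosome on both axes. Ly6i, Ly6a, Ly6c1, Ly6c2 and Ly6f form a block between 76.6% and 97.7%, and every pair with Ly6d, Ly6k or Ly6e lies between 46.5% and 53.5%.

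The sequence before the start site is shown for Ly6f, the member with the widest gap between the conditions, and for Ly6c1 and Ly6c2, relatives that stayed low in both conditions. These are the 3 of the 8 genes that the RefSeq promoter table used here holds (GRCm38.p6), and each line gives the 250 bases before the start, 5′ to 3′ on the gene's strand. The bases of Ly6f come from chr15:75268171-75268420, those of Ly6c1 from chr15:75048838-75049087 and those of Ly6c2 from chr15:75111972-75112221. Capitals mark bases of Ly6c1 and Ly6c2 that differ from Ly6f or have no aligned base in it.
Ly6f: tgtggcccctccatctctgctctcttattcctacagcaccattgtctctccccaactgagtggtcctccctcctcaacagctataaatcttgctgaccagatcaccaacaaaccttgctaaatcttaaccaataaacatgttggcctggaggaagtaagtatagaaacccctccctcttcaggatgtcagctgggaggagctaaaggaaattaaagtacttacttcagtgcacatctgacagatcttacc
Ly6c1: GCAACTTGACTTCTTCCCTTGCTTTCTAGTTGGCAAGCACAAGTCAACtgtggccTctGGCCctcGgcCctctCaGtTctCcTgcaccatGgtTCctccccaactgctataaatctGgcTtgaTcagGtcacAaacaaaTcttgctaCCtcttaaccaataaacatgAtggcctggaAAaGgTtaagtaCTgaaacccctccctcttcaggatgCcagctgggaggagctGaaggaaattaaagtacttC
Ly6c2: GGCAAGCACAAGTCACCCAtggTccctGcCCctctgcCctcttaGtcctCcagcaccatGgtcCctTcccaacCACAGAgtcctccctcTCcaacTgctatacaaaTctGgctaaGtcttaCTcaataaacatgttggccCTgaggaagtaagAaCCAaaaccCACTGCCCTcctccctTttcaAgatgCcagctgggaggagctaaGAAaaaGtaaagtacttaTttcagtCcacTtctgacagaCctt
The upstream sequence of Ly6f was 75.4% identical to that of Ly6c1 over 224 alignment columns and 70.7% identical to that of Ly6c2 over 256 columns. Ly6c1 and Ly6c2, whose coding sequences are nearly the same, were 71.9% identical here over 228 columns. Motifs of 4 factor groups were searched on both strands from 250 bases before to 50 bases after the start. None of the 3 promoters held the STAT motif TTCNNNGAA, which 8.3% of the 32851 promoters in the table hold, the interferon response motif (3.4%), the EBF motif (0.9%) or the AP-1 motif TGANTCA (7.8%).

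Ly6f, whose protein is little characterised, was present in every BCR-ABL1 line and all but absent from EV lines. It had 0 reads in EV lines 1A, 1B, 1C and 2C, 2 reads in EV line 2A and 3 reads in EV line 2B. In BCR-ABL1 lines 1A, 1B and 1C it had 449, 543 and 398 reads, and in lines 2A, 2B and 2C it had 1319, 1390 and 1107 reads. The conditions did not overlap, and the few EV reads lay in the lines 2A and 2B that had reads on more genes. Scaled to depth, the BCR-ABL1 lines from mouse 1 held 7.61 to 11.3 CPM of Ly6f, whereas those from mouse 2 held 21.1 to 25.4 CPM. With 3 reads per line as the floor that a count of 0 allows, the level of Ly6f with BCR-ABL1 was at least 278-fold higher than with EV. In mouse 1 it was at least 192-fold higher, and in mouse 2 the same floor gave 338-fold. EV lines 2A and 2B had 2 and 3 reads rather than 0, so the value for mouse 2 is not a strict bound. The other bounds cover counting error only.

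Ly6a, the Sca-1 antigen, was low in EV and higher in BCR-ABL1 lines. EV lines 1A, 1B and 1C had 0.207, 0.130 and 0.123 CPM, and EV lines 2A, 2B and 2C had 0.489, 0.278 and 0.577 CPM, which rests on 8 to 32 reads per line. BCR-ABL1 lines 1A, 1B and 1C had 12.0, 18.7 and 13.6 CPM, and lines 2A, 2B and 2C had 4.83, 5.30 and 3.92 CPM. All BCR-ABL1 lines lay above all EV lines. The fitted log2 fold change was 5.03 ± 0.51 (SE, 6 lines per condition), which is 32.7-fold, and it was 6.61 in the lines of mouse 1 alone and 3.39 in those of mouse 2 alone. Flt3, the stem and progenitor marker that was higher in BCR-ABL1 lines (log2 fold change 3.61, adjusted p = 2.86e-05, edgeR glmTreat), moved with it. Slamf1, the other such marker that passed the filter, went the opposite way at -1.17 (adjusted p = 0.0583, and 0.0469 with mouse as a replicate block), and Kit and Cd34 stayed at or below 0.306 CPM and 0.153 CPM in every line. The part of such cells in the level of Ly6a was not tested.

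Ly6d was the member that was lower in BCR-ABL1 lines. EV lines 1A, 1B and 1C had 117, 115 and 118 CPM, and EV lines 2A, 2B and 2C had 261, 345 and 168 CPM. BCR-ABL1 lines 1A, 1B and 1C had 89.3, 84.7 and 74.1 CPM, and lines 2A, 2B and 2C had 81.4, 67.9 and 65.5 CPM. The EV lines of mouse 1 were close to each other and above all BCR-ABL1 lines, and those of mouse 2 were higher and spread widely. The log2 fold change was -1.28 ± 0.29 (SE, 6 lines per condition), a 2.43-fold lower level, and it was -0.49 in mouse 1 alone, -1.84 in mouse 2 alone and -0.76 without EV lines 2A and 2B. Of the 12 B lineage markers, 1 was called lower and 0 higher (glmTreat, with the same counts at an unadjusted p under 0.05), namely Il7r, the IL7 receptor alpha chain, at -1.06 (adjusted p = 0.00328). The list had a median log2 fold change of -0.10, and 8.33% of it was called beside 12.5% of all genes. Among those that did not pass, Rag1 stood at -0.66 and Pax5 at -0.10, whereas Vpreb1 stood at 0.35, Blnk at 0.35 and Rag2 at 0.29.

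Ly6e overlapped between the conditions. It had 414, 351 and 397 CPM in EV lines 1A, 1B and 1C and 452, 571 and 264 CPM in EV lines 2A, 2B and 2C. BCR-ABL1 lines 1A, 1B and 1C had 728, 670 and 752 CPM, and lines 2A, 2B and 2C had 450, 478 and 465 CPM. The BCR-ABL1 lines of mouse 1 lay above all other lines, while those of mouse 2 lay within the EV range. The log2 fold change was 0.53 ± 0.21 (SE, 6 lines per condition), with 0.90 in mouse 1 alone and 0.13 in mouse 2 alone.

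Ly6c2 reached at most 1.24 CPM and overlapped between the conditions. EV lines of mouse 1 had 4 to 9 reads, or 0.0614 to 0.169 CPM, and EV lines 2A, 2B and 2C had 0.489, 1.17 and 0.613 CPM. BCR-ABL1 lines 1A, 1B and 1C had 1.24, 1.11 and 0.840 CPM, and lines 2A, 2B and 2C had 0.558, 0.410 and 0.539 CPM. The log2 fold change of 0.87 ± 0.64 (SE, 6 lines per condition) covers 3.37 in mouse 1 alone and -0.59 in mouse 2 alone. Its near copy Ly6c1 had 0 to 6 reads in EV and 1 to 9 reads in BCR-ABL1 lines, so that the pair summed to 4 to 64 reads per EV line and 27 to 82 reads per BCR-ABL1 line. Reads of the pair could not be assigned with certainty.

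Ly6i and Ly6k, the latter known from testis and sperm, were hardly detected. Ly6i had 2 to 7 reads in EV and 0 to 8 reads in BCR-ABL1 lines. Ly6k had 0 to 11 reads in EV lines, with 11 in line 2C and 0 in all lines of mouse 1, and 0 or 1 read in BCR-ABL1 lines. Ly6c1, Ly6i and Ly6k did not pass the filter on low counts and were not tested, and counts this low limit any statement on a difference.

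**Figure D2:**
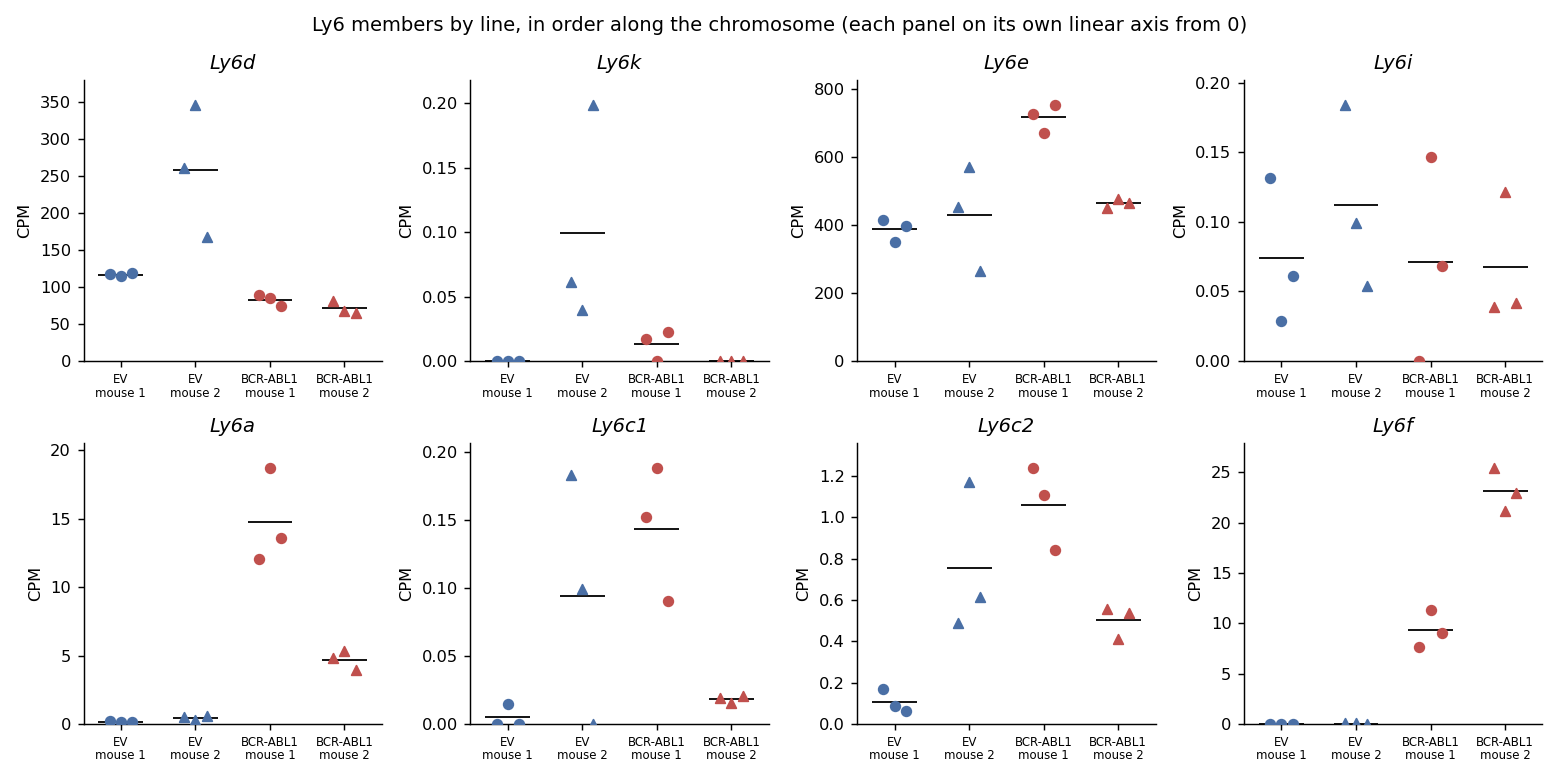
CPM of each Ly6 gene in the 12 lines, with 1 panel per gene in chromosomal order, linear axes from 0 that differ between panels, 1 point per line and the mean of each mouse and condition as a horizontal line. Ly6f and Ly6a are near 0 in EV lines and separate the BCR-ABL1 lines of the mice in opposite directions, Ly6d is highest in EV lines of mouse 2, and Ly6c1, Ly6i and Ly6k stay below 0.2 CPM.

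In all, 5 of the 8 genes passed the filter on low counts. Ly6a and Ly6f were called higher, Ly6d was called lower, and Ly6c2 and Ly6e were not called, where a call is an adjusted p under 0.05 in edgeR's glmTreat test against a 1.5-fold change. Over all 15038 genes tested, 5.99% were called higher, 6.49% lower and 12.5% in either direction. The ranges of the 6 EV and 6 BCR-ABL1 lines did not overlap for Ly6a, Ly6d and Ly6f, nor for 25.6% of all tested genes. The call of Ly6d was lost without any one of EV lines 2A and 2B and BCR-ABL1 lines 1C, 2B and 2C, with log2 fold changes of -1.03 to -1.24, which left 2 of the 5 called. In the lines of mouse 1 alone 4 members were called higher and 0 lower, and in those of mouse 2 alone 2 were called higher and 1 lower. The shares of all genes called in these smaller fits are not given here. The calls of the members use the contrast by which the genes were chosen, and nothing is read from them.

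Per kilobase of exon, the scale on which genes can be compared, the order of the levels changed between the conditions. In EV lines Ly6d came first at a mean of 252 CPM per kb (154 to 464), above Ly6e at 108 CPM per kb (69.9 to 151), and their ranges did not overlap. All other members were below 0.48 CPM per kb in every EV line, and from Ly6a downward neighbours in the order overlapped. In BCR-ABL1 lines Ly6e came first at 156 CPM per kb (119 to 199) and Ly6d next at 104 CPM per kb (88.0 to 120), with ranges that met. Ly6f followed at 18.5 CPM per kb (8.67 to 28.9) and Ly6a at 8.07 CPM per kb (3.25 to 15.5), which overlapped, and Ly6c2 at 0.285 CPM per kb (0.150 to 0.451) lay clearly below. Ly6d and Ly6e together held 99.67% to 99.95% of the reads of the 8 genes in EV lines and 94.5% to 97.5% in BCR-ABL1 lines, without regard to length.

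The order of Ly6d and Ly6e held line by line. Per kilobase Ly6d was 1.44 to 1.66 times Ly6e in EV lines of mouse 1 and 2.94 to 3.24 times Ly6e in those of mouse 2, and 0.502 to 0.919 times Ly6e in the 6 BCR-ABL1 lines. The order in EV lines depends on the length assigned to Ly6e. With the lowest-numbered coding transcript of each gene in place of the union of its exons, Ly6d exceeded Ly6e in 4 of 6 EV lines, and the ratio in mouse 1 was 0.869 to 1.00. Within BCR-ABL1 lines Ly6f was 0.834 to 0.913 times Ly6a in mouse 1 and 5.47 to 8.04 times Ly6a in mouse 2, so that the order of these genes differed between the mice.

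**Figure D3:**
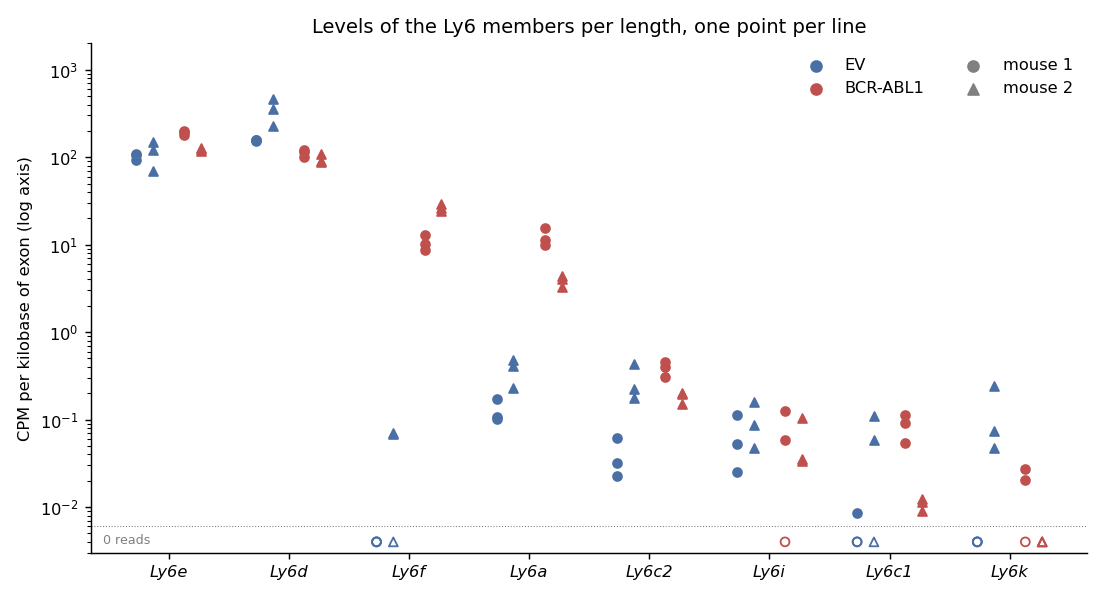
CPM per kilobase of exon of each Ly6 gene on a log axis, 1 point per line, with circles for mouse 1, triangles for mouse 2 and open symbols below the dotted line for 0 reads. Ly6e and Ly6d lie above 69 in all 12 lines, Ly6f and Ly6a lie between 3.25 and 28.9 in BCR-ABL1 lines, and the others stay below 0.48 in both conditions.

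**Figure D4:**
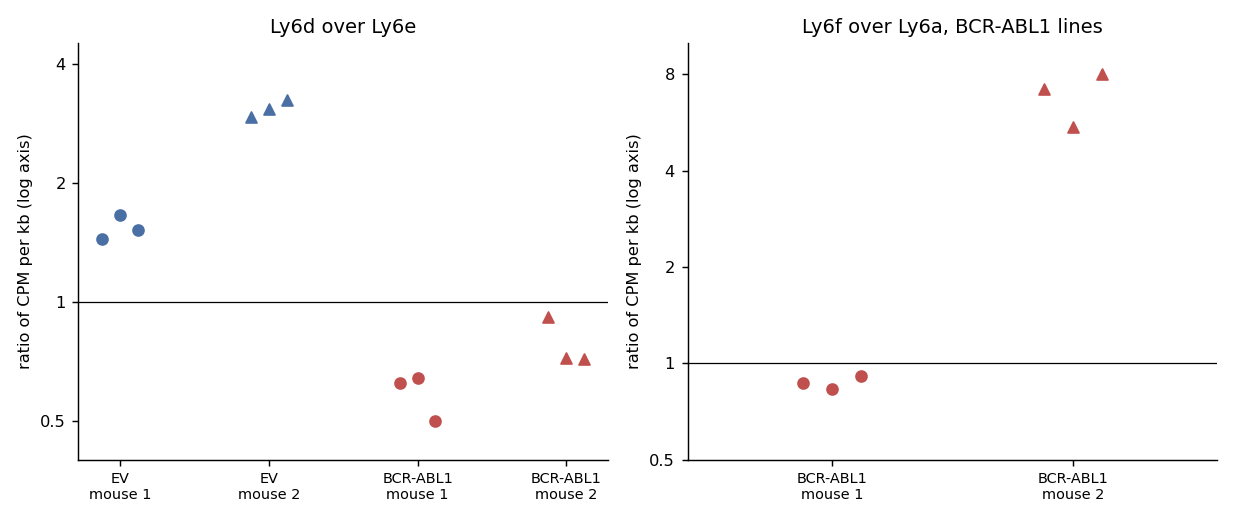
Ratio of CPM per kilobase on log axes, 1 point per line, for Ly6d over Ly6e in all 12 lines (left) and for Ly6f over Ly6a in the BCR-ABL1 lines (right). The left ratio is above 1 in every EV line and below 1 in every BCR-ABL1 line, and the right ratio is below 1 in mouse 1 and between 5.47 and 8.04 in mouse 2.

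The lines of both mice were then compared within each condition, with edgeR's quasi-likelihood test and adjustment over all 15038 genes. The lines on each side share an animal, so these p-values measure the spread among lines, not among mice. A difference between the mice cannot be told apart from any other difference between their cultures. In EV lines 3 of the 4 members that could be compared were higher in mouse 2, namely Ly6a, Ly6c2 and Ly6d, beside 24.8% of all genes that differed. Ly6f was left out here because no EV line exceeded the floor of 3 reads. Ly6c2 differed by 2.87 ± 0.48 on the log2 scale (7.33-fold, adjusted p = 0.000560), Ly6a by 1.55 ± 0.35 (2.94-fold, adjusted p = 0.00710) and Ly6d by 1.15 ± 0.30 (2.21-fold, adjusted p = 0.00192). Each was higher in 3 of 3 lines of mouse 2 than in all lines of mouse 1. Without EV lines 2A and 2B, which leaves line 2C as the lone EV line of mouse 2 and assumes that it varies like the others, the log2 differences were 2.57, 1.93 and 0.53, and all 3 passed. Ly6e differed by 0.15 ± 0.34 and did not pass (adjusted p = 0.664), but its value depends on the lines: without EV line 2C it was higher in mouse 2 by 0.40 (adjusted p = 0.00936), and without EV lines 2A and 2B it was -0.55 (adjusted p = 0.00194).

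In BCR-ABL1 lines Ly6a and Ly6f differed between the mice in opposite directions, 2 of 5 members beside 5.97% of all genes. Ly6a was 3.15-fold higher in mouse 1 (log2 difference of mouse 2 from mouse 1 -1.65 ± 0.23, adjusted p = 0.00263). Ly6f was 2.48-fold higher in mouse 2 (1.31 ± 0.18, adjusted p = 0.0241), in 3 of 3 lines. Without any one of BCR-ABL1 lines 1A, 1B, 1C, 2A, 2B and 2C the difference in Ly6f kept its direction, between 1.18 and 1.47, but its adjusted p lay between 0.0581 and 0.119. Ly6e at -0.63 ± 0.06 (adjusted p = 0.130), Ly6c2 at -1.09 ± 0.21 (adjusted p = 0.117) and Ly6d at -0.21 ± 0.13 (adjusted p = 0.737) did not pass. Without EV line 2B or without EV line 2C, which enter through the shared estimate of the spread, Ly6e and Ly6c2 passed as well.

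The effect of the condition itself differed between the mice for 3 of the 4 members compared, by the interaction of mouse and condition, beside 16.9% of all genes. The BCR-ABL1 effect in mouse 2 was smaller than in mouse 1 by 3.21 on the log2 scale for Ly6a (interaction -3.21, adjusted p = 0.000473). For Ly6c2 the interaction was -3.96 (adjusted p = 0.000660), where BCR-ABL1 lines lay above EV lines in mouse 1 while the levels overlapped in mouse 2. For Ly6d it was -1.35 (adjusted p = 0.00789), since the difference between the conditions was larger in mouse 2. The interaction of Ly6e was -0.78 (adjusted p = 0.106), and it passed without EV line 2C at -1.03 (adjusted p = 0.000158).

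**Figure D5:**
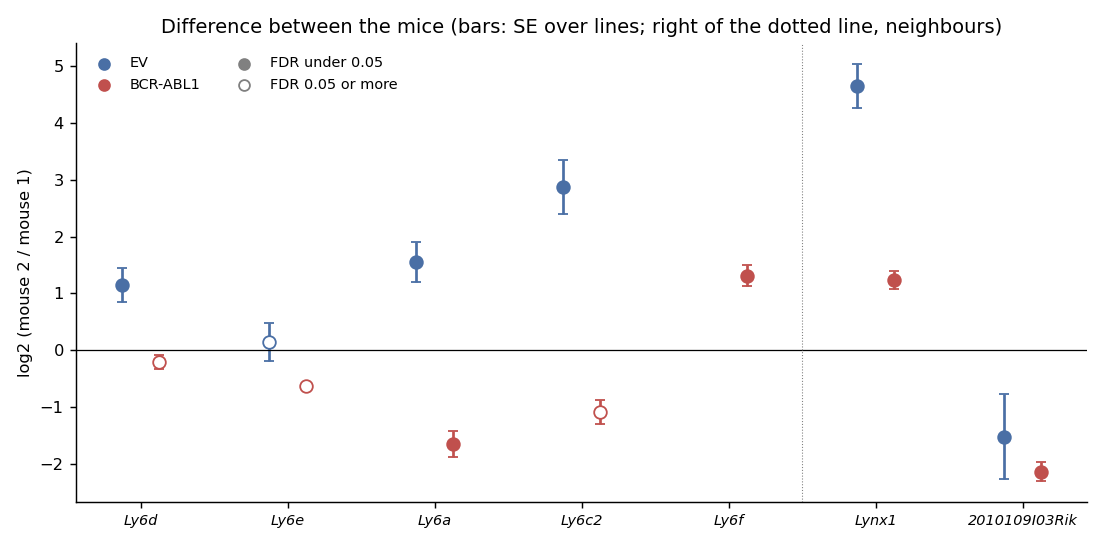
Log2 difference of mouse 2 from mouse 1 within EV lines (blue) and within BCR-ABL1 lines (red) for the 5 members tested and for Lynx1 and 2010109I03Rik, with bars of 1 SE over lines and filled points for an adjusted p under 0.05. Ly6d, Ly6a and Ly6c2 are higher in EV lines of mouse 2, whereas in BCR-ABL1 lines Ly6a stands at -1.65 and Ly6f at 1.31.

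The neighbours of the cluster were compared in the same way. Of 51 other genes from 500 kb before Ly6d to 500 kb after Ly6f, 12 passed the filter and 0 were called by glmTreat, beside 12.5% of all genes, a share that would amount to few calls among so few genes, whereas 2 were lower at an unadjusted p under 0.05 and DESeq2 also called 0. Their median log2 fold change was -0.45, against -0.02 over all genes. In a test against no change, 4 of the 12 were lower and 0 higher, and without EV line 1B 1 was called lower. Within the lines of mouse 1 alone, 4 were higher and 2 lower. The shares of all genes called in these alternative fits are not given here, so no trend of the neighbours is read from their counts. Ly6g, the neutrophil antigen between Ly6c2 and Ly6f, did not pass the filter, with 0 to 4 reads in EV and 4 to 24 reads in BCR-ABL1 lines.

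Between the mice, 5 of the 12 neighbours tested differed in EV lines and 4 in BCR-ABL1 lines, beside 24.8% and 5.97% of all genes. Neighbours within and outside the wider family were among them. The family genes given here were chosen after their values were seen. Lynx1, a member of the wider family that modulates nicotinic acetylcholine receptors, ranged from 1.34 to 2.15 CPM in EV lines of mouse 1 but from 30.6 to 65.9 CPM in mouse 2, a log2 difference of 4.65 ± 0.38 (adjusted p = 1.23e-06). In BCR-ABL1 lines it was higher in mouse 2 by 1.24 ± 0.15 (adjusted p = 0.0156). 2010109I03Rik, which RefSeq names Ly6m, was lower in mouse 2 in both conditions, with log2 differences of -1.52 ± 0.74 in EV (adjusted p = 0.0248) and -2.14 ± 0.16 in BCR-ABL1 lines (adjusted p = 0.0148).

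Across the genome the wider Ly6/uPAR family mostly did not pass the filter on low counts. Of 37 other family genes found in the table, 5 passed the filter and 3, Ly6l, Lypd2 and Gm4763, had no read in any line. Only Bambi, a TGF beta family pseudoreceptor whose outer part has the related fold, was called higher (log2 fold change 3.82, adjusted p = 0.00825), with 0.0144 to 0.337 CPM across EV lines against 0.407 to 2.87 CPM across BCR-ABL1 lines. None was called lower by glmTreat, nor lower at an unadjusted p under 0.05 or by DESeq2. With a CPM of at least 1 in 6 lines required, Bambi did not pass the filter and was not tested.

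Genes that build and attach the GPI anchor, on which most Ly6 proteins depend, were mostly not called. Of 31 tested, 0 were called higher by glmTreat, also at an unadjusted p under 0.05 and by DESeq2, and 2 were called lower, or 6.45% beside 12.5% of all genes, with a median log2 fold change of -0.06. These were Pigv, a mannosyltransferase of the pathway (13.3 to 22.3 CPM against 9.30 to 10.4 CPM, adjusted p = 0.00517), and Tmem8, the enzyme Pgap6 that sheds GPI proteins (log2 fold change -1.20, adjusted p = 0.00632). In a test against no change, 4 were higher and 9 lower. In the lines of mouse 2 alone, 1 was called higher and 0 lower by glmTreat, so both calls were lost. The shares of all genes called in the test against no change and in mouse 2 alone are not given here.

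Other leukocyte proteins with a GPI anchor were called in both directions. Their list was chosen with earlier results of these data known, so its share called is a description. Of 17 tested, 6 were called higher and 1 lower, or 41.2% beside 12.5% of all genes, with a median log2 fold change of 0.36. Prnp, the prion protein, was at 0.0180 to 0.198 CPM across EV lines but 17.0 to 27.9 CPM across BCR-ABL1 lines (adjusted p = 7.06e-07). Bst1, the ectoenzyme CD157, was at 1.12 to 7.58 CPM and at 216 to 265 CPM (adjusted p = 1.45e-06), and Sema7a, a membrane semaphorin, at 0.0433 to 1.24 CPM and 11.2 to 26.0 CPM (adjusted p = 0.000576). Rtn4r, the Nogo receptor, was the gene called lower, with 1.93 to 11.0 CPM across EV lines and at most 0.188 CPM with BCR-ABL1 (adjusted p = 0.000153). With mouse as a replicate block Raet1e, a ligand of the NKG2D receptor, was no longer called (adjusted p = 0.0503 against 0.0327).

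Since Ly6a and Ly6e are known as interferon-induced genes, a list of interferon genes was set beside them. The list was chosen with earlier results of these data known, so its share called is a description. Of 30 tested, 14 were called higher and 0 lower, or 46.7% beside 12.5% of all genes, and glmTreat gave 17 higher and 0 lower at an unadjusted p under 0.05, while DESeq2 gave 14 and 0. The median log2 fold change was 1.27. Gbp2 and Gbp7, guanylate-binding GTPases, were higher by 5.10 (adjusted p = 9.46e-05) and 5.33 (adjusted p = 5.87e-06). Ifit1, an RNA-binding effector, had at most 0.0360 CPM in any EV line but 0.228 to 1.08 CPM across BCR-ABL1 lines (adjusted p = 0.000350), and Rtp4, an antiviral chaperone, at most 0.153 CPM and 0.806 to 1.51 CPM (adjusted p = 0.000339). Of the signalling genes, the receptor chain Ifngr2 was called higher (1.07, adjusted p = 0.00199), and Stat2 at -0.05, Irf1 at -0.39 and Irf9 at -0.06 did not pass. In the lines of mouse 1 alone 25 were called, 24 of them higher, and in those of mouse 2 alone 6, all higher. The share of all genes called in each of these fits is not given here. EV lines of mouse 2 also differed more from each other than those of mouse 1. The counts therefore do not compare between the mice, and a difference between the mice was not tested for the list.

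Genes were ranked by how closely their log2 CPM followed each tested member over the 12 lines, as the root mean square difference after each gene's own mean was subtracted, among up to 10638 genes whose mean log2 CPM reached 1. Nearest to Ly6a was Gbp2 at 0.428, followed by Gbp7 at 0.705 and Clstn1, a calsyntenin, at 0.722. Nearest to Ly6f were Epha2, an ephrin receptor, at 0.654, Camk4, a calmodulin-dependent kinase, at 0.728 and Adgrl2, an adhesion receptor, at 0.873. Ly6d was followed by H2-Q5, a class I histocompatibility gene, at 0.171, Osbpl5 at 0.180 and Dusp2, a MAP kinase phosphatase, at 0.200. Ly6e was followed by Sirt3, a mitochondrial deacetylase, at 0.161, Arhgap25 at 0.173 and Il10rb, a cytokine receptor chain, at 0.179. Ly6c2 was followed by Ppp1r9b at 0.394, Rtl5 at 0.407 and Slc2a6 at 0.432. These distances grow with a gene's own spread, and the pool leaves out genes as low as Ly6a, Ly6c2 and Ly6f. They therefore rank genes for each member and do not compare between members.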

How the data were processed

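Total RNA of 12 lines was sequenced from stranded libraries. Per the labels, the authors used FastQC 0.11.5, Trimmomatic 0.36, TopHat2 2.1.1, Bowtie2 2.3.2, featureCounts 1.5.3, R 3.6.1 and edgeR 3.18.1 on GRCm38, and they deposited whole-number counts per gene without normalization or pooling. Strand, multi-mapping and annotation settings are not given in the sources used here, so reads of near copies and antisense genes are uncertain.

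Counts were analysed in R 4.3.3 with edgeR 4.0.16 (filterByExpr, TMM). BCR-ABL1 was compared with EV by glmTreat on the quasi-likelihood fit against a 1.5-fold change, and mice by glmQLFTest on a fit of mouse and condition, both with Benjamini-Hochberg adjustment over all 15038 genes tested and a threshold of 0.05. CPM were scaled by TMM, log2 CPM used a prior count of 2, SE come from log2 CPM, and 3 reads were the floor. Symbols (51633 of 51826 genes), positions and exon lengths were taken from GENCODE on GRCm38. DESeq2 1.42.0 was an alternative. Alignments used Biopython 1.88 and plots matplotlib 3.10.9 in Python 3.11.15. The members and gene lists were chosen with earlier results of these data known, so the shares called in the lists are descriptions. Leaving Ly6f out of the comparisons with EV lines, leaving out EV lines 2A and 2B together and the transcript length were chosen after seeing the data. Genes named are all members, the 3 genes most like each tested member, up to 4 called genes per list with the largest change, and others where this is said or where a marker or list value is given.

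The mouse, known from the labels, pairs the lines: deviations from condition means correlated by 0.0853 to 0.240 between lines of 1 mouse across the conditions and by -0.203 to -0.0635 between mice. The letters did not pair them (-0.109 to 0.0856 after mouse means were removed). No lines agreed within sampling noise (chi-square per gene of at least 10.0). EV line 2C stood apart, at 325 from EV line 2A and 490 from 2B, against at most 87.2 in other pairs. The lines of a mouse share that animal, so p-values between the conditions measure the spread between lines of 2 mice. In the comparisons of the mice and the interaction, p-values measure the spread among lines of the same mouse and condition, not among mice. The fits were tested on simulated counts with 100 genes changed by 2 and 100 by 3 on the log2 scale. Between the conditions 90 and 96 were recovered, and 0 other genes were called. Between the mice 85 and 97 were recovered in EV and 86 and 98 in BCR-ABL1 lines, with 11 and 10 other genes called. The interaction recovered 67 and 92 and called 8 other genes.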

Additional observations from a re-analysis of the deposited data

Results flagged for a closer look

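The difference between BCR-ABL1 and EV lines itself differed between the mice for 3 of the 4 Ly6 genes compared, beside 16.9% of all genes. The test was the interaction of mouse and condition in edgeR's quasi-likelihood fit. Its p-values measure the spread among lines that share an animal, not among mice. For Ly6a, with the smaller difference in mouse 2, the interaction was -3.21 (adjusted p = 0.000473, and at most 0.00278 over 18 alternatives). For Ly6c2 the interaction was -3.96 (adjusted p = 0.000660, and at most 0.00389 over 17 alternatives), and the level in BCR-ABL1 lines of mouse 2 lay within the range of the EV lines. For Ly6d it was -1.35 (adjusted p = 0.00789, and at most 0.0256 over 18 alternatives). Ly6c2 had 4 to 9 reads in the EV lines of mouse 1, and its reads could not be told from those of Ly6c1 with certainty. With a CPM of at least 1 in 6 lines required, Ly6c2 did not pass the filter. All 3 were higher in the EV lines of mouse 2, where EV lines 2A and 2B had reads on more genes than the other lines. Without both lines, which leaves line 2C as the lone EV line of mouse 2, the interactions were -3.59, -3.67 and -0.74.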

How the results depend on the processing

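Of 194 recomputed counts of calls, 166 stayed within 1.5 times the value given. Of 345 values of single genes, 314 kept their side of the threshold or, where no test was made, moved by less than the spread between lines. The sign turned for values that had not been called, namely the log2 fold change of Ly6c2 at -0.59 in mouse 2 alone and the mouse difference of Ly6e in EV lines, at -0.11 without EV line 2B and -0.55 without EV lines 2A and 2B. Apart from genes that a filter removed, the cause of the changes below was not tested.

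With mouse as a replicate block, 3 members were called, 2 higher and 1 lower, and the same genes as without it, and the log2 fold changes were 4.91 for Ly6a, -1.17 for Ly6d and 0.50 for Ly6e. With the line pair as a replicate block, which the letters do not bear out, 2 members were called, and Ly6d was not one of them. DESeq2 also called 2. With mouse as a block Isg15 (adjusted p = 0.0436 against 0.0661) and Slamf1 (0.0469 against 0.0583) were called and Raet1e was not, and no other list call changed there.

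Without a gene filter 2 other family genes and 1 neighbour were called, and 5 members differed between the mice in the BCR-ABL1 effect. With a minimum CPM of 1 in 6 or more lines, 0 other family genes and 6 interferon genes were called. That filter removes low genes before the test, Bambi and Ifit1 among them. In the test against no change, 4 neighbours, 13 GPI anchor genes and 22 interferon genes were called. For this and the other settings of this paragraph, the share of all genes called is not given here. In the lines of mouse 1 alone, 3 other family genes, 6 neighbours, 13 GPI-anchored leukocyte proteins and 25 interferon genes were called, and in mouse 2 alone 2, 1 neighbour, 1 GPI anchor gene (higher) and 6 interferon genes. Without EV lines 2A and 2B, 2 other family genes and 2 neighbours were called, and 4 members differed between the mice in BCR-ABL1 lines. Leaving out each line in turn gave 0 to 1 neighbours, 2 to 3 called members (2 without EV line 2A or 2B or BCR-ABL1 line 1C, 2B or 2C), 1 to 4 members that differed between the mice in BCR-ABL1 lines, 3 to 4 in EV lines and 3 to 4 in the interaction (4 without EV line 2C). With a prior count of 0.5, 13 of the 15 nearest genes remained. Counts of Ly6c1, Ly6i and Ly6k, at most 11 reads per line, limit any statement on them.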

Other observations

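Among the neighbours of the Ly6 cluster, 5 of 12 tested genes differed between the mice in EV lines, 4 in BCR-ABL1 lines and 4 in the interaction, beside 24.8%, 5.97% and 16.9% of all genes. These genes were looked at after the values were seen. The transcribed pseudogene 9030619P08Rik had no read in the EV lines of mouse 1 but 1.23 to 4.01 CPM in mouse 2, and its BCR-ABL1 levels were 0.305 to 0.752 CPM in mouse 1 against 3.57 to 4.33 CPM in mouse 2. Top1mt, the mitochondrial topoisomerase, had 3.29 to 3.75 CPM in EV lines of mouse 1 and 1.20 to 1.36 CPM in its BCR-ABL1 lines, whereas in mouse 2 it had 0.377 to 3.14 CPM across EV lines but 6.63 to 9.76 CPM across BCR-ABL1 lines (interaction 3.99, adjusted p = 0.00659). Zfp41, a zinc finger gene, had an interaction of 0.96 (adjusted p = 0.00303), and Arc was lower in EV lines of mouse 2 by -1.17 (adjusted p = 0.0151). The interaction of Lynx1 was -3.42 (adjusted p = 0.000121).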
